A study of Homo sapiens with 4 samples.

Results

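The transcripts of 10 cytoskeleton genes used in proplatelet formation were followed in Meg-01 cells with reduced GATA1: TUBB1, MYH9, MYH10, MYL9, FLNA, ACTN1, ACTN3, TLN1, WAS and GSN. They were found by their names on the array, with every non-control probe kept apart, which gave 16 of 41000 probes and all 10 genes. All 16 were among the 40974 probes tested, and each was measured by 1 spot per array. RNA of 2 clones with a stable lentiviral GATA1 shRNA, GATA1 5-13 and GATA1 4-14, was hybridized on 4 2-colour Agilent arrays, and the partner on every array was GATA1 Neg, pooled cells that carry a lentivirus with a negative control shRNA. Each clone had 2 arrays, with its RNA labelled red on replicate 1 and green on replicate 2, and all 4 arrays lay on 1 slide.

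Meg-01 is an established human megakaryoblastic line, an immature leukemic counterpart of the cells that make platelets. The shRNA clones were picked from soft agar after puromycin selection, so each group is 1 clone, whereas the control is a pool that carries the virus and a control hairpin. The extraction text of the labels names clones of CMK, another line, while all other labels name Meg-01. GATA1 Neg was the control on every array, and its own spread was not measured. Whether 1 RNA preparation served all arrays was not established here. Values below are log2 ratios of a clone over GATA1 Neg, in which 0 means equal levels and 1 means a doubling.

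A mature megakaryocyte releases platelets by pushing long, branching proplatelets into the blood. Microtubules built from the platelet form of β-tubulin drive their extension, whereas actin filaments and non-muscle myosin II set when they form and how they branch. Cross-linking proteins tie actin to the membrane and to adhesion receptors, and inherited defects of several of these genes cause low platelet counts with abnormally large or small platelets. GATA1 is a main transcription factor of this lineage.

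GATA1, the targeted gene, was lower in both clones. Its probe gave -0.21 and -0.34 in GATA1 5-13 and -0.43 and -0.58 in GATA1 4-14, a mean of -0.39 ± 0.16 (SD, n = 2 clones). GATA1 signal was thus 82.7% and 70.6% of that in GATA1 Neg. The difference did not pass limma's moderated test after Benjamini-Hochberg adjustment over all probes (adjusted p = 0.605). Feature Extraction, the scanner program, marked 61.6% to 66.4% of spots per array and channel as well above background, a mark used as the criterion of detection below. No spot was saturated.

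None of the 10 genes passed the tests used here. With limma, 0 of 16 probes passed an adjusted p of 0.05, against 0% of all probes, and 0 passed an unadjusted p of 0.005, against 0.901% of all probes. At an unadjusted p under 0.05 there was 1 probe, for TLN1, which was lower, against 7.42% of all probes, 4.04% lower and 3.38% higher. With the 4 arrays as 4 values and the replicate number, which is the dye orientation, as a block, 5 probes were under 0.05: both of TLN1 and A_24_P408424 of MYH9, which were lower, and ACTN3 and GSN, which were higher. In that fit 18.2% of all probes were under 0.05. An error-weighted mean of the 4 arrays, which counts each array as independent, also called 0 of 16, against 8.62% of all probes at an adjusted p of 0.05 and 8.86% at an unadjusted p of 0.005. The means of the 15 detected probes ran from -0.18 to 0.18, with a median of 0.02, and the median of all probes tested was -0.00022. By clone means, the TUBB1 probes and A_24_P34168 and A_23_P164081 of MYH10 were higher in GATA1 5-13 than in GATA1 4-14. The remaining MYH10 probe was not well above background in GATA1 4-14.

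**Figure D1:**
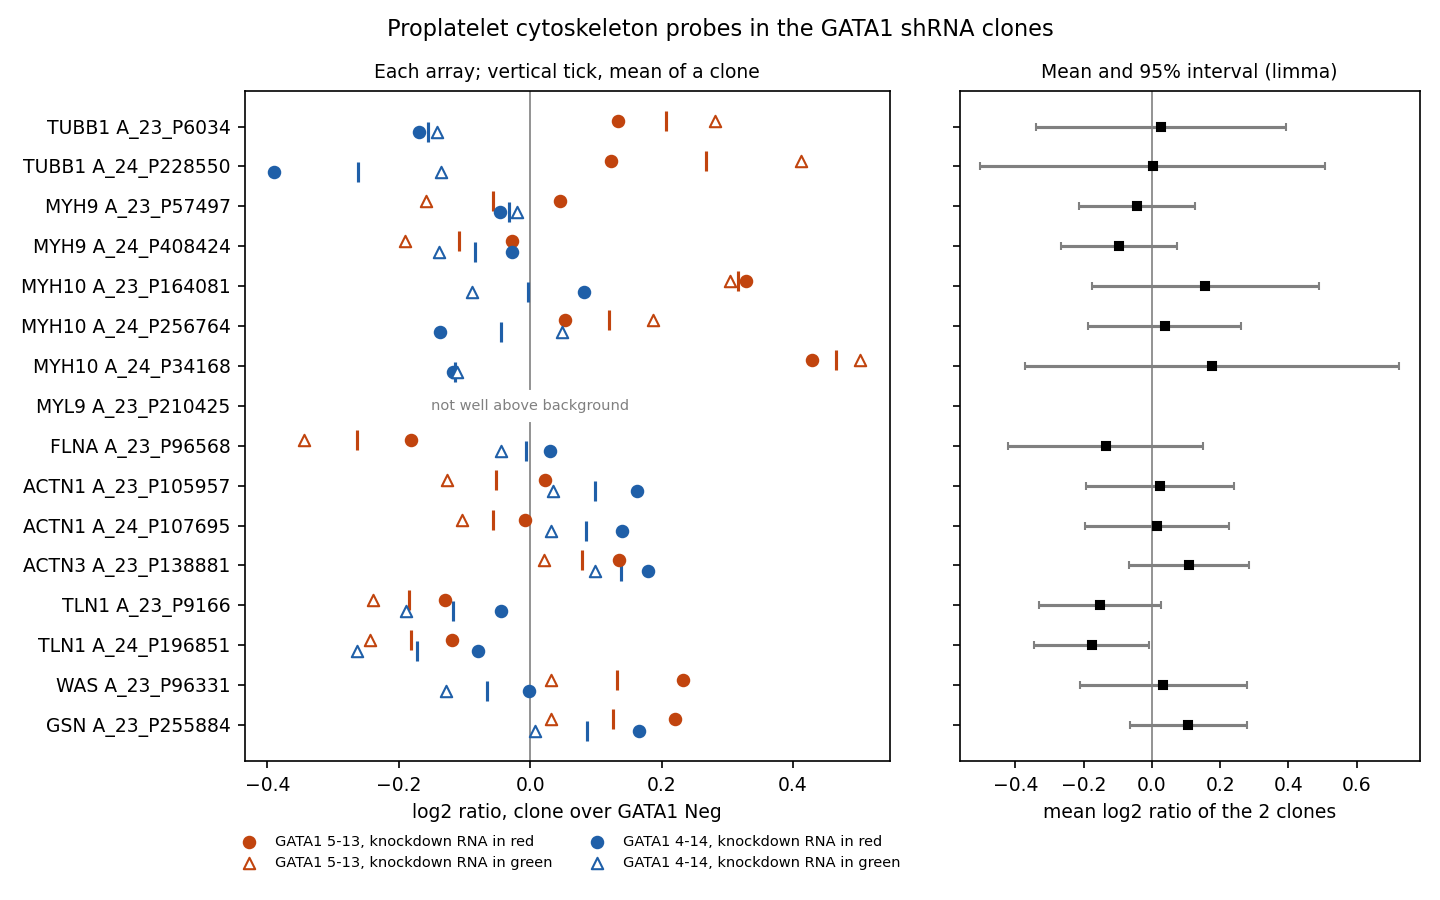
Left, the log2 ratio of a clone over GATA1 Neg for each probe on each array (filled circles, knockdown RNA in red; open triangles, in green; vertical ticks, clone means). Right, the mean of the 2 clones with its 95% interval from limma; 14 of the 15 intervals include 0, and MYL9, below background in every RNA, has no value.

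Detection set what could be read. In both RNAs, 14 of the 16 probes were well above background on all arrays, as were 58.1% of all probes tested. MYH9 had the strongest spot, at 25.9 to 56.7 times its local background for A_24_P408424. ACTN1, TLN1, FLNA and a probe of MYH10 stood at 2.67 to 16.1 times. The probes of TUBB1 and ACTN3 were weak, from 1.19 to 3.04 times background. Levels of different probes cannot be set against each other on such an array.

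**Figure D2:**
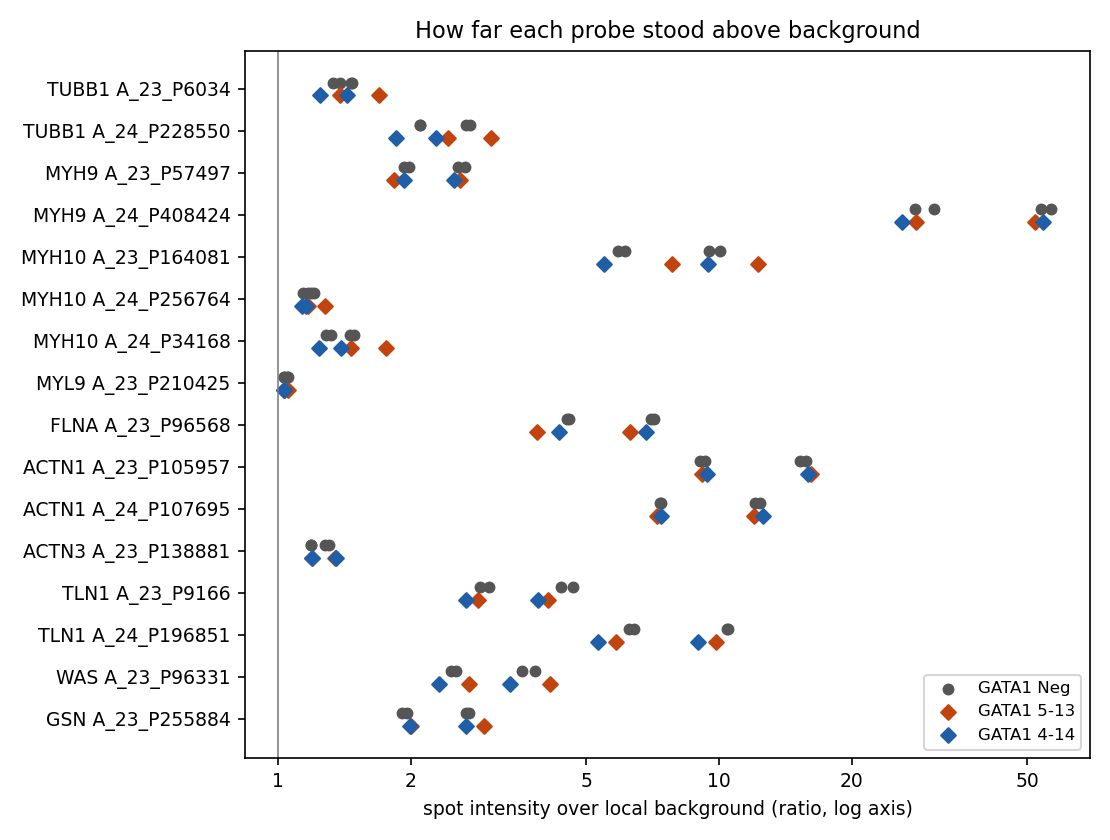
Mean spot intensity over the local background (ratio, log axis) for each probe, with 4 points for GATA1 Neg and 2 for each clone. The probe of MYL9 lies at 1.03 to 1.05 in every RNA and A_24_P408424 of MYH9 at 25.9 to 56.7.

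TUBB1 encodes the β-tubulin of platelets and late megakaryocytes, and it was higher in 1 clone and lower in the other. Probe A_24_P228550 (hg18, chr20:57034639-57034698) gave 0.12 and 0.41 in GATA1 5-13 and -0.39 and -0.14 in GATA1 4-14. Probe A_23_P6034 (chr20:57033076-57033135) gave 0.13 and 0.28 in GATA1 5-13 and -0.17 and -0.14 in GATA1 4-14. For both probes, both arrays of GATA1 5-13 were above 0 and both of GATA1 4-14 below, without overlap. The array with green knockdown RNA was the higher of each clone for both probes. For A_24_P228550 the 2 arrays of a clone were 0.29 apart in GATA1 5-13 and 0.25 in GATA1 4-14. The clone means were 0.27 and -0.26 for the former probe and 0.21 and -0.16 for the latter, or 120% and 83.4% of GATA1 Neg and 115% and 89.8%. The opposite signs cancelled in the mean, 0.00 (95% interval -0.50 to 0.51; limma adjusted p = 0.998) and 0.03 (-0.34 to 0.39; adjusted p = 0.97). Both probes read the same transcript, so they are not independent measurements of it.

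The size of the TUBB1 difference was not unusual for this array. The clones were at least 0.53 apart, as for A_24_P228550, for 5.54% of all probes, and at least 0.36 apart, as for A_23_P6034, for 11.4%. A clone is 1 replicate, so no test of GATA1 5-13 against GATA1 4-14 was possible. The difference kept its sign in each setting tried and without each array, at 0.34 to 0.67 for A_24_P228550 and at 0.16 to 0.71 for A_23_P6034. Because the RNA came from whole cultures, fewer cells with a transcript and less of it per cell cannot be told apart.

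Non-muscle myosin II pulls on actin. Its heavy chain IIA, MYH9, is the form of platelets and the gene of MYH9-related macrothrombocytopenia. MYH9 was close to GATA1 Neg, and A_24_P408424 (chr22:35007533-35007592) gave -0.03 and -0.19 in GATA1 5-13 and -0.03 and -0.14 in GATA1 4-14. All 4 arrays were below 0, with a mean of -0.10 (95% interval -0.27 to 0.07; limma adjusted p = 0.734), and the array with green knockdown RNA was the lower of each clone. The other MYH9 probe, A_23_P57497, gave 0.05 and -0.16 and then -0.05 and -0.02, with a mean of -0.04 and an adjusted p of 0.87. Its coordinates (chr22:35008761-35010127) span 1367 bases and thus cross an intron.

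Heavy chain IIB, MYH10, is kept low as megakaryocytes become polyploid. Probe A_24_P34168 (chr17:8467119-8467178) gave 0.43 and 0.50 in GATA1 5-13 and -0.12 and -0.11 in GATA1 4-14. Probe A_23_P164081, the strongest of the 3, gave 0.33 and 0.30 in GATA1 5-13 and 0.08 and -0.09 in GATA1 4-14. In both, the arrays of GATA1 5-13 lay above those of GATA1 4-14 without overlap, whereas the arrays of GATA1 4-14 lay on both sides of 0 for A_23_P164081.

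The third MYH10 probe, A_24_P256764, gave 0.05 and 0.19 in GATA1 5-13. Its signal in GATA1 4-14 was not well above background on either array. That of GATA1 Neg was well above it on 1 of those 2 arrays and on 3 of 4 in all. The ratios there were -0.14 and 0.05, so no direction or bound is given for GATA1 4-14. The means of the 3 probes were 0.18 (95% interval -0.37 to 0.72), 0.16 (-0.18 to 0.49) and 0.04 (-0.19 to 0.26), with limma adjusted p of 0.832, 0.764 and 0.919. In GATA1 5-13 alone MYH10 stood at 138% and 125% of GATA1 Neg by the first 2 probes named, without a test. The clone difference of A_24_P34168 was 0.58, and lay between 0.26 without background correction and 0.97 with the log ratios of Feature Extraction. In the error-weighted mean A_24_P34168 came nearest of the 16 probes to the threshold (adjusted p = 0.0586).

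MYL9, a regulatory light chain of myosin II whose phosphorylation switches contraction on, was not well above background in either RNA on any array, so no ratio is given. Of all probes tested, 31.1% were likewise undetected. Its spot measured 1.03 to 1.05 times the local background.

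**Figure D3:**
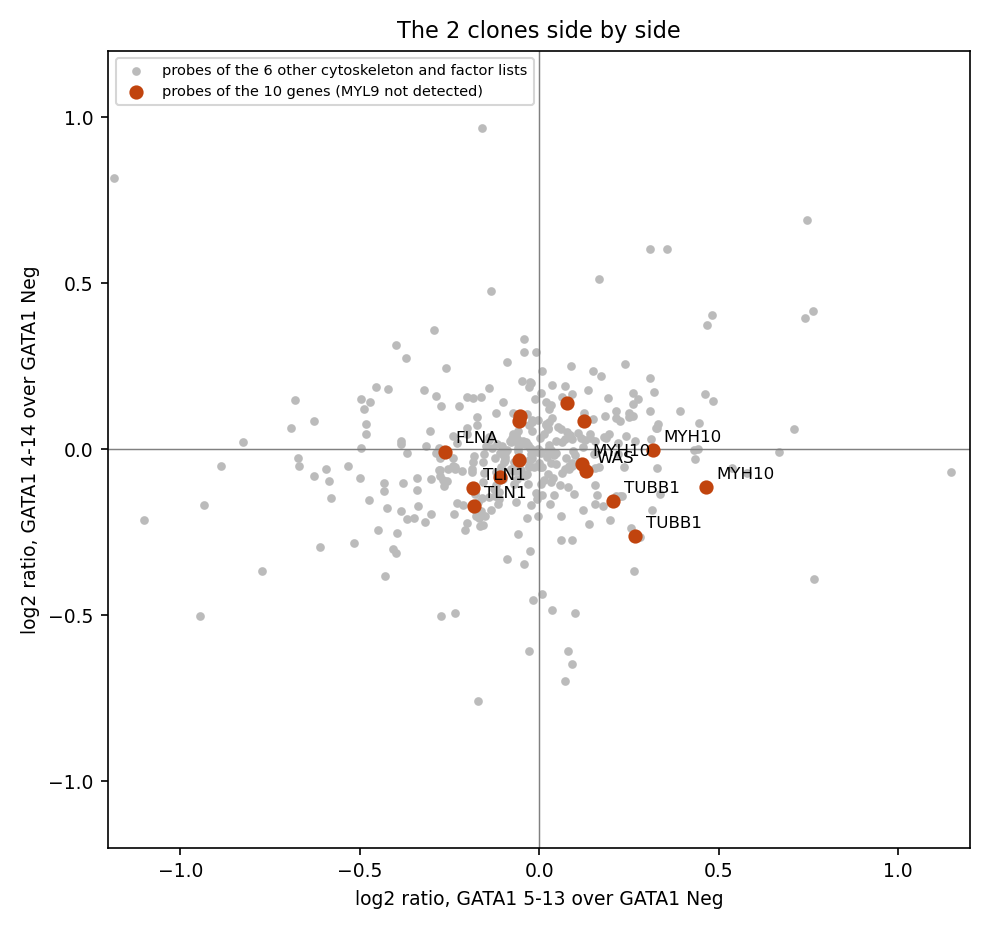
Log2 ratio over GATA1 Neg in GATA1 5-13 (x) against GATA1 4-14 (y) for the 15 detected probes of the 10 genes (orange) and the 375 probes of 6 related gene lists (grey), of which 5 lie outside the axes. TUBB1 and a probe of MYH10 lie right of 0 and below it, FLNA lies left of 0 near y = 0, and TLN1 lies below 0 in both clones.

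The clone means of the actin cross-linkers lay lower in GATA1 5-13 than in GATA1 4-14. FLNA encodes filamin A, which links actin filaments to the von Willebrand factor receptor GPIb. Its probe (chrX:153231689-153231748) gave -0.18 and -0.35 in GATA1 5-13 and 0.03 and -0.04 in GATA1 4-14. GATA1 5-13 was lower than GATA1 Neg on both arrays, at 83.3%, and GATA1 4-14 was near 0, at 99.5%. The mean was -0.14 (95% interval -0.42 to 0.15; limma adjusted p = 0.762).

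ACTN1 encodes α-actinin-1, a bundler of actin filaments that is mutated in a dominant macrothrombocytopenia. Probe A_24_P107695 gave -0.01 and -0.10 in GATA1 5-13 and 0.14 and 0.03 in GATA1 4-14, and A_23_P105957 gave 0.02 and -0.13 and then 0.16 and 0.04. The 2 probes lie close together on chromosome 14 and gave similar values, with means of 0.01 and 0.02 and limma adjusted p of 0.97 and 0.952.

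ACTN3 encodes the α-actinin of fast skeletal muscle fibres. Its probe gave 0.14 and 0.02 in GATA1 5-13 and 0.18 and 0.10 in GATA1 4-14. It was above 0 on all 4 arrays, with a mean of 0.11 (95% interval -0.07 to 0.28; limma adjusted p = 0.723), from a spot at 1.19 to 1.35 times background. The mean was 0.045 without background correction and 0.29 with the log ratios of Feature Extraction. Of 11 markers of skeletal muscle, 4 were well above background in GATA1 Neg on all arrays (CKM, MYOD1, MYOG and TNNT1), and DES, MYH1 and TNNT3 on none. The summed intensity of these markers was 1596 to 1757 in GATA1 Neg, 1564 to 1599 in GATA1 5-13 and 1655 to 1785 in GATA1 4-14, and their part in the result was not tested.

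TLN1 encodes talin-1, which couples integrins to actin and activates them. It was the only one of the 10 genes whose every probe was below 0 on all 4 arrays. Probe A_24_P196851 (chr9:35687766-35687825) gave -0.12 and -0.24 in GATA1 5-13 and -0.08 and -0.26 in GATA1 4-14. Probe A_23_P9166 (chr9:35688851-35688910) gave -0.13 and -0.24 in GATA1 5-13 and -0.04 and -0.19 in GATA1 4-14. In each clone the array with the knockdown RNA in green was the lower.

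TLN1 signal was 88.5% of GATA1 Neg by the former probe and 90.1% by the latter. The means were -0.18 (95% interval -0.34 to -0.01) and -0.15 (-0.33 to 0.03), with unadjusted p of 0.0442 and 0.075 in limma and adjusted p of 0.669 and 0.681. Over all alternatives run with a test, the adjusted p of A_24_P196851 lay between 0.125 and 0.796, and its unadjusted p was not under 0.05 with median centring, the filter on dim probes, an intensity trend or the error-weighted mean, nor without either array of GATA1 5-13 or without replicate 2 of GATA1 4-14. A total of 3 of the 16 probes were below 0 on all 4 arrays, the TLN1 pair and A_24_P408424 of MYH9, as were 13.4% of all probes and 16.8% of those well above background in both RNAs on all arrays.

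The actin regulators were close to GATA1 Neg. WAS encodes the Wiskott-Aldrich syndrome protein, an activator of branched actin assembly, and gave 0.23 and 0.03 in GATA1 5-13 and -0.00 and -0.13 in GATA1 4-14. GSN encodes gelsolin, which severs and caps actin filaments, and gave 0.22 and 0.03 in GATA1 5-13 and 0.17 and 0.01 in GATA1 4-14. GSN and ACTN3 were the 2 probes above 0 on all 4 arrays, as were 12.8% of all probes and 15.9% of those well above background. The arrays with red knockdown RNA were the higher for WAS and GSN in each clone, as they were for FLNA, ACTN1 and ACTN3. The means were 0.03 (95% interval -0.21 to 0.28; limma adjusted p = 0.938) for WAS and 0.11 (-0.07 to 0.28; adjusted p = 0.722) for GSN.

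In all, 4 of the 16 probes, both of TUBB1, A_24_P34168 of MYH10 and the WAS probe, were above 0 on both arrays of GATA1 5-13 and below 0 on both of GATA1 4-14, as were 8.03% of all probes and 9.27% of those well above background. The reverse held for 1 probe, A_24_P107695 of ACTN1, as for 7.86% of all probes and 9.31% of those well above background. The 4 probes come from 3 genes. The median distance between the clones was 0.15 for the 16 probes, 0.10 for all probes and 0.15 for those well above background in both RNAs on all arrays, and the median distance between the 2 arrays of a clone was 0.15 and 0.12 for the 16 probes against 0.10 and 0.10.

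The median of the erythroid markers had the same signs as these 4 probes. So did the medians of skeletal muscle markers (0.02 in GATA1 5-13 and -0.01 in GATA1 4-14) and of smooth muscle and fibroblast markers (0.06 and -0.06). Those of megakaryocyte, myeloid and lymphoid markers did not. The 21 probes of erythroid markers, 11 of whose 12 genes on the array were well above background, stood at a median of 0.17 in the 5-13 clone and -0.22 in the 4-14 clone. Their summed intensity was 290501 to 508672 in GATA1 Neg, 563174 to 569475 in GATA1 5-13 and 317312 to 452355 in GATA1 4-14. The last range lies within that of GATA1 Neg. However, the GATA1 Neg ranges pool both dyes and the arrays of both clones, so they are not paired by array as the ratios are. Of the erythroid probes, 1 passed an unadjusted p of 0.005 in limma, as did 1 of 8 myeloid probes, against 0.901% of all probes. The other marker sets had 0. The 20 probes of megakaryocyte markers had medians of -0.11 and -0.01, with summed intensities of 18754 to 19747, 14737 to 15095 and 17172 to 17538 in the same order. Of their 12 genes, 8 were well above background in GATA1 Neg on all arrays, TUBB1 among them, whereas PF4, SELP and VWF were on none. Their part in the TUBB1, MYH10 and WAS values was not tested.

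Promoter sequence is shown because the perturbed protein is a DNA-binding factor. RefSeq promoters of GRCh38.p14 were found for 8 of the 10 genes, with 17 transcription starts. MYL9 and ACTN3 had no entry. The 250 bases before each start were searched on both strands for the letters GATA with A or T before them and A or G after them, which GATA factors prefer, and for the CArG box of serum response factor, a regulator of actin genes. The 2 motifs share no letters in the windows printed here. GATA letters were in 1 of the 17 windows and in 22.3% of 35116 promoter windows of the same length. A CArG box was in 2 of the 17 and in 1.16% of all windows. The windows with a match, and that of TUBB1, are printed 5′ to 3′ with matches in capitals: the GATA letters lie 170 bases before an ACTN1 start, and the CArG boxes 94 bases before the FLNA start and 171 bases before another ACTN1 start.
TUBB1, chr20:59019179-59019428, plus strand: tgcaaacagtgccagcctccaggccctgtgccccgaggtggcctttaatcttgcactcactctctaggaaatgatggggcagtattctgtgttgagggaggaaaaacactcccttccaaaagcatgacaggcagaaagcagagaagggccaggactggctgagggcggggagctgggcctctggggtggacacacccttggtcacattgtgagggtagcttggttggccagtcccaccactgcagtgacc
FLNA, chrX:154374635-154374884, minus strand: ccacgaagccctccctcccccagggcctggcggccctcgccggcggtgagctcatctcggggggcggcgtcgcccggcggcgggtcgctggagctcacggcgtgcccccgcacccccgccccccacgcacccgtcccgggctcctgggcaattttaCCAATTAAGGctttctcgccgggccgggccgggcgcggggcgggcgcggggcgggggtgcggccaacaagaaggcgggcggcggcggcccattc
ACTN1, CArG box, chr14:68977567-68977816, minus strand: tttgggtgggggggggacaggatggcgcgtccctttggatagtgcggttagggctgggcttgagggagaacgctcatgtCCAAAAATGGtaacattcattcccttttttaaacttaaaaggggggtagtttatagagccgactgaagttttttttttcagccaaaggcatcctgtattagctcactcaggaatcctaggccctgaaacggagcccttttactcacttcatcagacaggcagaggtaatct
ACTN1, GATA letters, chr14:68937952-68938201, minus strand: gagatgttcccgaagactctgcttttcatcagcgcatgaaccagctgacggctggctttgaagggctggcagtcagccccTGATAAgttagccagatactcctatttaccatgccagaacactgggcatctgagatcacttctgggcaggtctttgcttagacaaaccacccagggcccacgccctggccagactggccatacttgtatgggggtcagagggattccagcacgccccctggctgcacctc

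A match is a run of letters and not a shown binding site, and the array does not tell which ACTN1 start was used. TUBB1, with the clones on opposite sides of 0, has neither motif in its window, FLNA has a CArG box, and the ACTN1 probes, which carry both motifs among their 4 starts, had means near 0.

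The rest of the proplatelet cytoskeleton was read with 6 lists of paralogues, partners and lineage factors, of which 197 of 228 names were on the array, with 375 probes. In limma, 0 of them passed the adjusted threshold and 4 passed an unadjusted p of 0.005, 2 lower and 2 higher, against 0.574% of all probes lower and 0.327% higher. At an unadjusted p under 0.05, 32 were lower and 15 higher, against the 4.04% and 3.38% of all probes. Of the 375, 329 were well above background in both RNAs on all arrays, against 58.1% of all probes, so these shares are not a like comparison. Of the 23803 probes detected in that way, 1335 were lower and 1164 higher at p under 0.05. The 2 list probes lower at 0.005 were those of S100A4 and TES, and the 2 higher were those of ACTN2 and ENAH. List medians ran from -0.06 for myosin II regulation to -0.0014 for microtubules and their motors. The members named from each list are the up to 2 lowest and 2 highest with 1 sign on all 4 arrays and a detected brighter RNA.

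**Figure D4:**
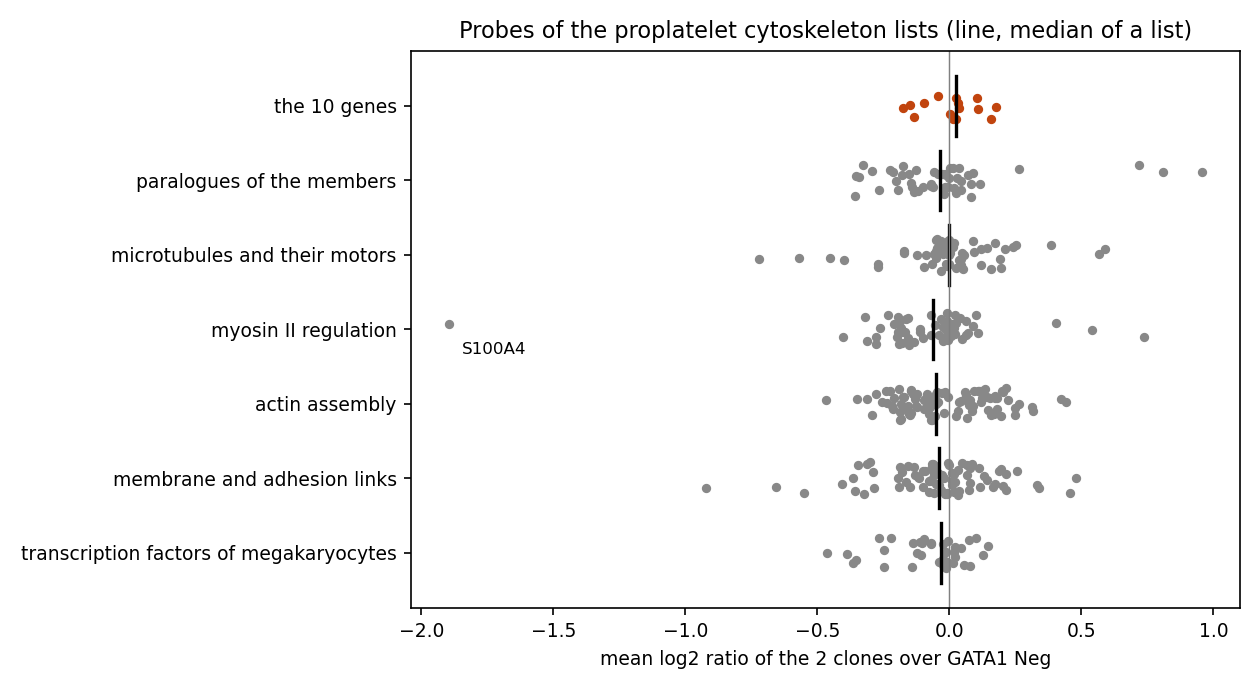
Mean log2 ratio of the 2 clones over GATA1 Neg for each detected probe of the 10 genes and each probe of the 6 related lists; vertical lines are list medians. The 10 genes lie between -0.18 and 0.18, whereas S100A4 stands alone at -1.89.

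Among these lists the mean farthest below 0 was that of 1 gene of myosin II regulation. S100A4, a calcium-binding protein that takes apart filaments of the MYH9 heavy chain, gave -1.96 and -1.93 in GATA1 5-13 and -1.81 and -1.88 in GATA1 4-14. All 4 arrays gave nearly equal values, and S100A4 stood at 26.0% and 27.8% of GATA1 Neg (mean -1.89, 95% interval -2.09 to -1.70, unadjusted p = 6.17e-05, adjusted p = 0.30 in limma). Within the list of myosin II regulation, 1 of 58 probes was lower and 0 higher at 0.005, 8 lower and 0 higher at p under 0.05, and 17 were below 0 on all 4 arrays. The shares of all probes were 0.574%, 4.04% lower at p under 0.05 and 13.4% below 0 on all 4 arrays, the last 16.8% of those well above background. The tropomyosins and phosphatase that the rule named were near 0 or divided by clone: TPM1 was at -0.03 and -0.61 in the 2 clones, PPP1CB at 0.06 and 0.16 and TPM4 at 0.12 and 0.01, with adjusted p of 0.731 to 0.826.

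Among 48 probes of paralogues, ACTN2, the α-actinin of cardiac and slow muscle, gave 0.66 and 0.83 in GATA1 5-13 and 0.66 and 0.72 in GATA1 4-14, with every array above 0. Its mean was 0.72 (95% interval 0.54 to 0.89, unadjusted p = 0.000917, adjusted p = 0.406 in limma), and its signal was 164% of GATA1 Neg, whereas ACTN1 stood at 101% and 102%. The difference between the 2 genes was not tested. SVIL, which encodes supervillin of the gelsolin family, was at 0.37 in GATA1 5-13 and 1.25 in GATA1 4-14 with an adjusted p of 0.675. MYL6B, a myosin light chain, was at -0.63 and -0.08, and WASF2, which acts beside WAS in actin assembly, at -0.58 and -0.10, with adjusted p of 0.709 and 0.702.

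Of 57 microtubule probes, 0 passed an unadjusted p of 0.005 in limma, while 6 were lower and 3 higher at p under 0.05, against 0.901%, 4.04% and 3.38% of all probes. Both probes listed under TUBA1, now TUBA4A, an α-tubulin of platelets, were below 0 on all 4 arrays, at -0.94 and -0.50 by A_23_P154065 and at -0.77 and -0.37 by A_23_P102109 (adjusted p = 0.578 and 0.611). MAPRE2, which binds growing microtubule ends, was above 0 with both probes, at 0.76 and 0.42 by A_23_P418015 and at 0.74 and 0.39 by A_24_P193911 (adjusted p = 0.578 and 0.587). The naming rule asked for 1 sign on all 4 arrays, so it fixed the like signs of both genes in both clones. No contrast with TUBB1 can be drawn from that.

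Of 94 probes of actin assembly, ENAH, which promotes filament elongation, passed an unadjusted p of 0.005 at 0.48 and 0.40 (mean 0.44, limma adjusted p = 0.546). DIAPH1, a formin that lies downstream of RhoA, was at 0.47 and 0.37, FNBP1L at -0.89 and -0.05 and WIPF2, a partner of WAS, at -0.35 and -0.21, with adjusted p of 0.563 to 0.724. In both clones DIAPH1 was brighter by ratio on the array with red knockdown RNA.

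Of 82 probes of membrane and adhesion links, TES, a focal adhesion protein that binds talin and actin regulators, was at -0.43 in GATA1 5-13. In GATA1 4-14 its signal was not well above background on either array, which leaves a bound of at least 1.30-fold lower, so its unadjusted p under 0.005 (limma adjusted p = 0.549) rests in part on an unmeasured level. A second TES probe was not well above background in any RNA. GP1BA, the GPIb subunit that filamin A binds, was at -1.68 in GATA1 5-13 and -0.16 in GATA1 4-14, and SPTAN1, an α-spectrin of the membrane skeleton, at -1.10 and -0.21. Both were the lower in GATA1 5-13, as was FLNA. Of the other genes named as lowest, MYL6B, WASF2, TUBA1, S100A4, FNBP1L and WIPF2 were too, and TPM1, LMO2 and GATA1 were not. Ratios of all probes also spread more widely on the arrays of GATA1 5-13 (SD 0.30 and 0.31) than on those of GATA1 4-14 (0.22 and 0.22). ADD3, an adducin, was at 0.36 and 0.60, and FYB, an adaptor of integrin signalling now called FYB1, at 0.31 and 0.60. Adjusted p lay between 0.576 and 0.712 for these 4.

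Of 36 probes of lineage transcription factors, 0 passed an unadjusted p of 0.005 in limma, with 4 lower and 0 higher at p under 0.05, against 4.04% and 3.38% of all probes. LMO2, a bridging protein of the GATA1 complex, was at -0.17 in GATA1 5-13 and -0.76 in GATA1 4-14 (adjusted p = 0.682). GATA1 itself was at -0.27 and -0.50, and TPM1, at -0.03 and -0.61, was likewise the lower in GATA1 4-14. The other genes named as lowest had the reverse order. Any gene has either this order or its reverse, so the shared order does not tie LMO2 to the level of GATA1. Such a link was not tested.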

How the data were processed

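The authors deposited Agilent Feature Extraction 9.5.3.1 output for 4 arrays, with probe positions on hg18. The spot and local background intensities were deposited by the authors without normalization. The deposited log10 ratio per spot was background-subtracted and dye-normalized by that program, and the authors' series-wide table holds the same log10 ratios as knockdown over control. The deposited p-value per spot comes from 1 array's error model and was not used.

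Intensities were corrected with normexp (offset 50) and loess in limma 3.58.1 (R 4.3.3; data.table, version 1.17.8). Control and outlier spots were dropped, ratios turned to knockdown over GATA1 Neg, and each clone averaged over its 2 arrays to 1 replicate. The mean of 2 clones was tested two-sided against 0, and p-values were adjusted by Benjamini-Hochberg over 40974 probes. The limma p-values use the spread between these 2 clones only, moderated toward that of all probes, and 4 arrays limit the precision. For A_24_P196851 of TLN1 the SD of the clones was 0.0069, whereas the moderated standard error was 0.0535. Its p-value thus rests largely on the spread of other probes. The error-weighted mean weights the deposited log10 ratios by the error score that the authors deposited with each, from Feature Extraction, and takes p from a normal distribution. The test was tried on simulated data with planted shifts far larger than the means of the cytoskeleton probes. That trial does not show whether shifts of their size would be detected. Figures used Python 3.11.15 and matplotlib 3.10.9. Promoters were searched in a RefSeq table of GRCh38.p14; no coordinate was converted.

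The 10 genes, lists and rules were chosen with earlier results of these data known. All probes of the 10 genes are named; per other list, the up to 2 lowest and 2 highest that kept their sign over all 4 arrays and were well above background in the brighter RNA, with GATA1; TES was named after its values were seen. Markers of myeloid, lymphoid and smooth muscle cells were also read: in GATA1 5-13 and GATA1 4-14 their medians were -0.06 and 0.01, 0.05 and 0.04, and 0.06 and -0.06. Summed myeloid intensity was 9083 to 9703 in GATA1 Neg, 5322 to 5380 in GATA1 5-13 and 5879 to 6066 in GATA1 4-14. Alternatives are given in the closing section. Arrays of equal replicate number have the same dye orientation and correlated at 0.387 and 0.409 across clones, and those with different numbers at 0.216 and 0.171.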

Additional observations from a re-analysis of the deposited data

Results flagged for a closer look

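For 5 probes, both arrays of a clone lay on one side of GATA1 Neg and both arrays of the other clone on the opposite side. The difference of GATA1 5-13 minus GATA1 4-14 was 0.53 for A_24_P228550 and 0.36 for A_23_P6034 of TUBB1, 0.58 for A_24_P34168 of MYH10, 0.20 for the WAS probe and -0.14 for A_24_P107695 of ACTN1. The difference between the clones was not tested, since each clone is 1 replicate. The WAS value rests on an array of GATA1 4-14 at -0.00, and the ACTN1 value on an array of GATA1 5-13 at -0.01.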

How the results depend on the processing

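With 1 replicate per clone, effects of GATA1 loss and of cloning cannot be told apart, and the dim spots of TUBB1, ACTN3 and 2 MYH10 probes limit what could be seen. Of the 16 probes, 0 passed either threshold in any of the 15 alternatives that give a test. The filter on dim probes tested 14 of them. Aquantile leaves the log ratios unchanged and the series-wide values repeat those of Feature Extraction, so neither is a separate check. The count of 4 probes of the related lists at an unadjusted p of 0.005 became 2 with Feature Extraction log ratios, 2 with the series-wide values, 2 with the filter on dim probes, 30 with the 4 arrays as 4 values, 26 with the replicate number as a block and 54 in the error-weighted mean. These are 8.0%, 6.93% and 14.4% of the 375, where 5.39%, 4.33% and 8.86% of all probes were called, and all 3 settings count each array as independent. More of the 375 than of all probes were well above background, so these shares are not a like comparison. Of the 23803 probes well above background in both RNAs on all arrays, the error-weighted mean called 1587 lower and 1380 higher at 0.005. Leaving out an array gave 3 to 4. The replicate block, for which only 2 pairs exist, called 0 of the 16 probes.

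Probes with means near 0 changed sign. With Feature Extraction log ratios and with the series-wide values A_23_P6034 of TUBB1 was at -0.0071 in each, and with median centring A_24_P228550 was at -0.00063. Leaving out an array gave -0.013 to 0.061 for A_23_P105957 and -0.013 to 0.042 for A_24_P107695 of ACTN1, -0.0085 to 0.084 for A_24_P256764 of MYH10, -0.095 to 0.0066 for A_23_P57497 of MYH9, -0.011 to 0.063 for A_23_P6034 and -0.069 to 0.075 for A_24_P228550 of TUBB1 and -0.017 to 0.084 for WAS; the cause was not tested. Of 569 values with a test for single probes, 519 kept their call and direction, 37 newly passed the threshold and 13 changed sign, those above. The 519 include the Aquantile values, which equal the main ones by construction. MYL9 is left out as undetected. GATA1 passed with the 4 arrays as 4 values (adjusted p = 0.0493) and in the error-weighted mean (0.00256), but not with the replicate block (0.107). The 5 probes with opposite clones were 3 without background correction, 3 with median centring and 4 with Feature Extraction log ratios. Aquantile had to give 5, since it leaves the log ratios unchanged. These alternatives were chosen after seeing the data. Each clone alone gives a value without a test; 8 of 76 such values had the opposite sign to the mean.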
